A study of Homo sapiens with 12 samples.

Results

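Translation initiation and elongation factors are the proteins that load the ribosome onto an mRNA, find its start codon and move it along the coding sequence. The set described here held 63 genes of the 59324 rows of the table. A gene belonged if its symbol began with EIF or EEF and the number of a factor class, if it was not an EIF2AK kinase, and if its mean over the 12 libraries was at least 1 TPM. TPM is a length-corrected share of a library's transcripts, scaled to a fixed total, so levels can be compared between genes. Of 207 rows that matched by name, 136 carried names that end in P and digits, as pseudogenes do, and were left out. The other 8 were below the level: EEF1A2, EIF4G3, EIF4E1B, EIF5AL1, EIF1B-AS1, EIF1AY, EIF1AX-AS1 and EEF1AKMT4-ECE2. Nearest inside the limit were EIF2S3B at a mean of 1.46 TPM and EEF1E1-BLOC1S5 at 1.88 TPM, and nearest outside were EEF1A2 at 0.398 TPM and EIF4G3 at 0.309 TPM. By GENCODE type 62 members were protein-coding, and EIF3J-DT is a noncoding RNA divergent from EIF3J.

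The cells were MDA-MB-468, an established human breast cancer line of the triple-negative kind, grown as control, with SAHA (10 µM, 12 h), with sonidegib (10 µM, 72 h, named a pretreatment) or with both. SAHA, also called vorinostat, is a histone deacetylase inhibitor and sonidegib blocks Smoothened, the membrane protein that carries the Hedgehog signal. Each group had 3 libraries, all from this 1 line, and the labels do not say whether these were separate cultures, so each p-value reflects library-to-library spread that may be technical. The labels do not give a vehicle or a culture time for the control, nor doses for the combination apart from those of the drugs it joins.

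Initiation begins when eIF2, with GTP, brings the initiator tRNA to the small ribosomal subunit, helped by eIF1, eIF1A, eIF3 and eIF5. The cap-binding complex eIF4F, made of eIF4E, the scaffold eIF4G and the helicase eIF4A, recruits this assembly to the mRNA, and 4E-BP proteins compete with eIF4G for eIF4E. After the start codon is found, eIF5B joins the large subunit, and eEF1 and eEF2 then carry elongation. Many mRNAs of this machinery begin with a C followed by an unbroken run of C and T, the terminal oligopyrimidine (TOP) start, through which mTORC1 and LARP1 control their translation and stability.

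The bases at the annotated transcript starts are printed first, because members are set side by side by them further on. A RefSeq start window (GRCh38.p14) was found for 51 of the 63 members, or 81.0%. EEF1AKMT1, EEF1AKMT3, EEF1D, EEF2KMT, EIF2S2, EIF3A, EIF3CL, EIF3E, EIF3G, EIF3H, EIF3L and EIF4EBP1 had none. A pyrimidine start was taken as an annotated first base C followed by at least 4 more pyrimidines. Of the 51 members 13 had one, 25.5% against 5.14% of the 27305 genes in the start table. That table also holds genes below the level of 1 TPM, so the shares are not over like sets of genes. Each stretch below shows 15 bases before the annotated start and 15 from it on, 5′ to 3′ on the gene's strand, with the pyrimidine run in capitals. The run of EEF1B2 is 16 bases long and goes on past its window.
EEF1A1, chr6:73521018-73521047, minus strand: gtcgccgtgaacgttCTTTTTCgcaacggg
EEF1B2, chr2:206159880-206159909, plus strand: ccggtctcttcgggtCCTTTTTCCTCTCTT
EEF2, chr19:3985449-3985478, minus strand: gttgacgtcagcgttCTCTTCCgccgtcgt
EIF2A, chr3:150546772-150546801, plus strand: tcacccgagcggtttCTCTTTCCgggacaa
EIF2D, chr1:206612451-206612480, minus strand: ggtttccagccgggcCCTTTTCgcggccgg
EIF2S3, chrX:24054941-24054970, plus strand: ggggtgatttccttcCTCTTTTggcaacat
EIF2S3B, chr12:10505875-10505904, plus strand: ggggtgactttcttcCTCTTTTggcaacat
EIF3D, chr22:36529152-36529181, minus strand: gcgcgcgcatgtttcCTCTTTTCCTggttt
EIF3F, chr11:7987322-7987351, plus strand: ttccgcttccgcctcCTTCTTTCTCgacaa
EIF3K, chr19:38619173-38619202, plus strand: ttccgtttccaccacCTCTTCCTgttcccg
EIF3M, chr11:32583816-32583845, plus strand: gcgcggcccagttccCTTTTCCggtcggcg
EIF4A2, chr3:186783562-186783591, plus strand: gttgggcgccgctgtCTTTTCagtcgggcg
EIF4B, chr12:53006441-53006470, plus strand: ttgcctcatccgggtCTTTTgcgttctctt
EIF2S3B is a near-identical copy of EIF2S3 and shares its run. The next 4 members, chosen after values were seen because they have 1 annotated start and fell with sonidegib, do not have such a start.
EIF4A1, chr17:7572810-7572839, plus strand: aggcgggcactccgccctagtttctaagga
EIF1AX, chrX:20141824-20141853, minus strand: gcaaagagtcgcggcgccatttgctgccgc
EIF2B1, chr12:123633672-123633701, minus strand: gaggggtacggaagtgcgccggaagtgggg
EIF5B, chr2:99337374-99337403, plus strand: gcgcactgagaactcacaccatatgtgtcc
An annotated start is not a measured start, and these libraries do not give the first base of any transcript. At 11 of the 51 members RefSeq lists more than 1 start, and the window is that of the table.

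Epithelial markers were high in every library (EPCAM 178 to 346 TPM, KRT8 836 to 2388 TPM) and EGFR stood at 516 to 678 TPM. Of the receptors that the triple-negative class lacks, PGR was listed at 0, ESR1 reached 1.76 TPM and ERBB2 ranged from 3.05 to 26.3 TPM. Among markers of other cells, PTPRC reached 0.010 TPM, CD3E 0.090, VWF 0.40, PECAM1 1.03 and PDGFRB 0.87, while COL1A1 ranged from 2.83 to 12.8 TPM and CD68 from 3.61 to 12.3 TPM. The sonidegib libraries, alone or with SAHA, differed from the others in RNA classes: 5S rRNA genes summed to 0 TPM in all 6 libraries without sonidegib and to between 1488 and 12641 TPM in the 6 with it. Mitochondrial rRNA took 0.616% of TPM in control, 1.24% under SAHA, 2.22% under sonidegib and 2.61% under both drugs. Whether the groups were prepared alike is not given, so a difference in preparation and an effect of sonidegib cannot be told apart in any comparison of sonidegib with no sonidegib. Depth is unknown, since TPM keep no counts.

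With SAHA most translation factor mRNAs fell. Of the 63 members 37 were lower and 8 higher than in control at an adjusted p under 0.05 (limma on log2 of TPM + 1, Benjamini-Hochberg over 13937 genes), and 18 were not called. Called members made up 71.4%, beside 58.7% of all tested genes. By direction 58.7% of members fell, against 26.9% of all tested genes, and 12.7% rose, against 31.8%. The median log2 change was -0.35 over the members and 0.045 over all tested genes. Libraries of the groups did not overlap for 48 members, against 63.7% of all tested genes.

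With sonidegib members fell more often than all tested genes, and rose about as often. Here 34 members were lower and 19 higher than in control, and 10 were not called. Called members made up 84.1%, against 55.3% of all tested genes, with 54.0% lower against 29.2% and 30.2% higher against 26.1%. Their median log2 change was -0.26, beside -0.022 over all tested genes, and for 56 members the libraries did not overlap, against 62.3%. With the combination 32 members were lower and 16 higher than in control, so 76.2% were called against 63.7% of all tested genes. By direction 50.8% fell against 34.0%, 25.4% rose against 29.7%, and the libraries of 52 members did not overlap, against 66.9%. Under quantile normalization 26 members fell and 21 rose, while of the 13937 tested genes 4472 fell and 4666 rose. The combination and both single drugs were set against the same 3 control libraries, so their counts are not independent of one another.

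**Figure D1:**
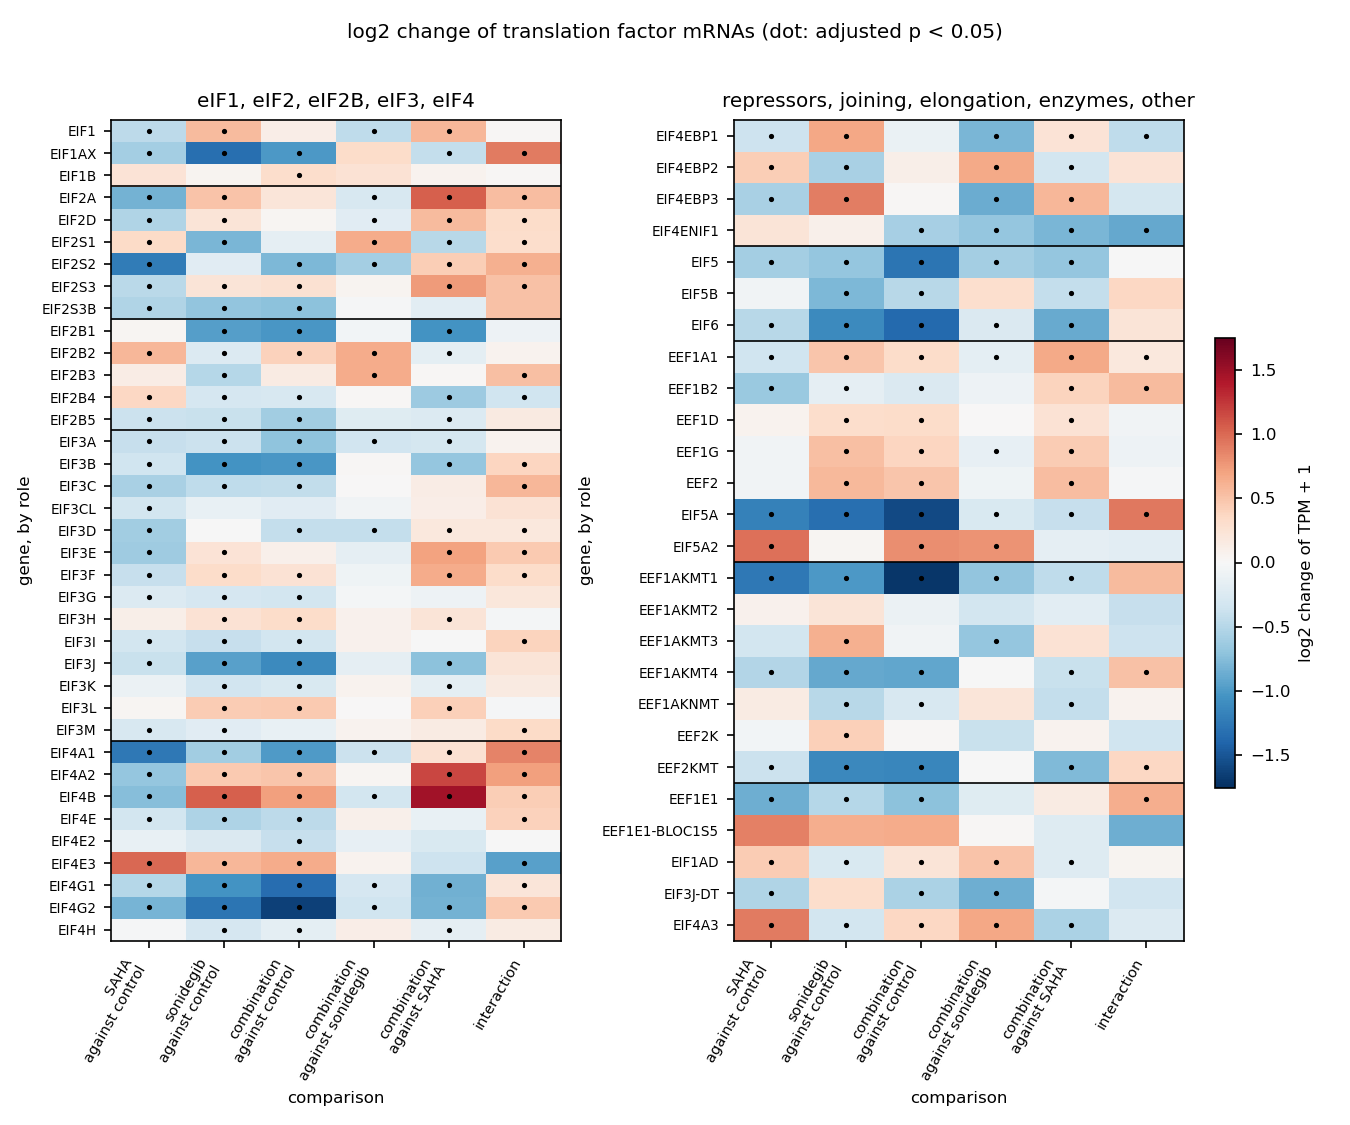
Colour gives the log2 change of TPM + 1 for each of the 63 members (rows, grouped by role between the black lines) in 5 comparisons and in the interaction (columns), and a dot marks an adjusted p under 0.05. The SAHA column has 37 falls and 8 rises, and the sonidegib column 34 falls and 19 rises. The rises of EEF1A1 in the sonidegib and combination columns become -0.07 under quantile normalization, which sets values by rank.

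Summed over the set, the members took 2.95% of all TPM in control, 2.401% under SAHA, 3.43% under sonidegib and 3.13% under both drugs (n = 3 each). The elongation factors carried most of this sum, with 1.83% in control, 1.51% under SAHA, 2.45% under sonidegib and 2.21% under both drugs. The eIF4 group went from 0.245% in control to 0.148% under SAHA, 0.191% under sonidegib and 0.165% under both drugs. Joining factors held 0.065%, 0.046%, 0.035% and 0.028% in the same order. The shares of the elongation factors with sonidegib lay above every control library, and those of the joining factors lay below. Ribosomal protein genes, which belong to the same machinery, took 20.5% of TPM in control, 17.9% under SAHA, 24.01% under sonidegib and 22.9% under both drugs. In these bulk libraries fewer cells of a kind and less RNA per cell cannot be told apart. TPM are shares of a fixed total, so a share can also fall because other RNAs rise.

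**Figure D2:**
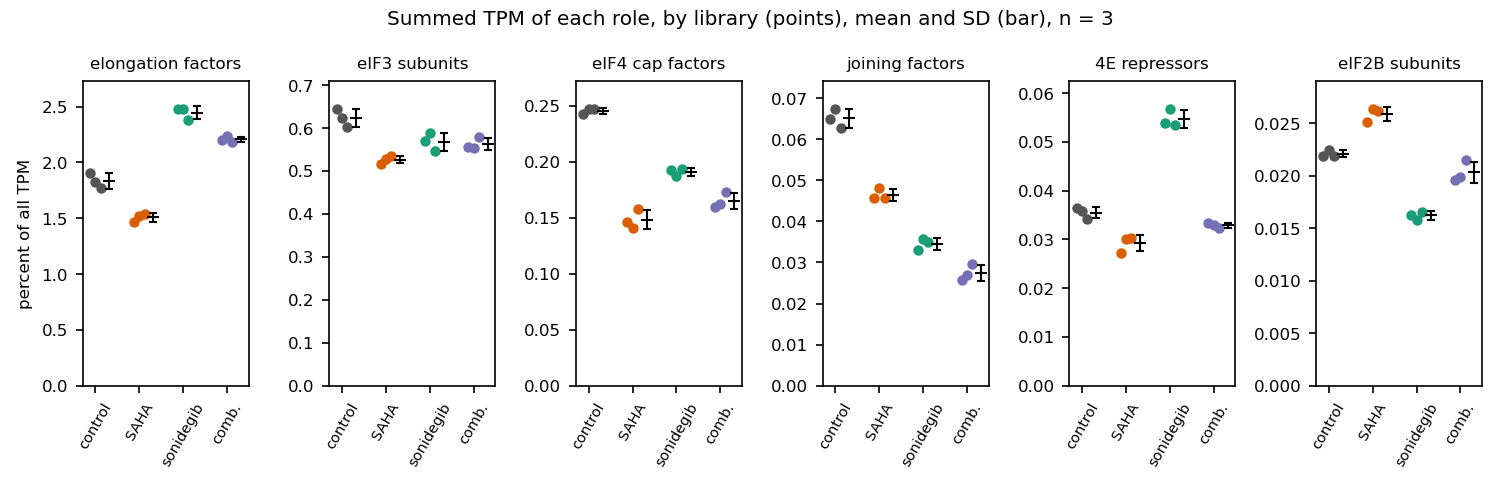
Points give the summed TPM of a role as a percent of all TPM in each library, and the bar beside them the mean and SD of 3 libraries, on a separate axis from 0 for each role. Elongation factors average 2.45% with sonidegib against 1.83% in control, and the joining factors 0.035% against 0.065%.

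Among the start-site selection factors, EIF1, whose protein guards against wrong start codons, fell with SAHA and rose with sonidegib. EIF1 stood at 271, 285 and 285 TPM in control, 191, 208 and 211 under SAHA, 424, 399.7 and 410.1 under sonidegib, and 285, 311 and 314 under both drugs. Every SAHA library lay below and every sonidegib library above the control libraries, while the combination libraries lay just above control, with a log2 change of 0.11 that was not called. Its log2 change was -0.46 ± 0.054 (adjusted p = 1.81e-05) with SAHA and 0.55 ± 0.054 (adjusted p = 5.92e-06) with sonidegib (± SE). EIF1AX, the X-linked gene of eIF1A, fell with each drug, from 35.4 ± 4.67 TPM (SD, n = 3) in control to 23.4 ± 4.55 under SAHA, 13.5 ± 0.932 under sonidegib and 17.1 ± 2.12 under both drugs. Its libraries did not overlap those of control in any of the 3 groups, and the log2 change with sonidegib was -1.32 ± 0.14 (adjusted p = 1.21e-05). EIF1B, a close relative of EIF1, had log2 changes of 0.24 with SAHA and 0.05 with sonidegib, neither called, and rose by 0.30 with the combination.

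The 3 subunits of eIF2 did not move together. EIF2S1, which encodes the alpha subunit that stress kinases phosphorylate, stood at 149, 156 and 152 TPM in control, 179.5, 196 and 202 under SAHA, 85.2, 84.7 and 92.4 under sonidegib, and 122, 141 and 149 under both drugs. Every SAHA library lay above control and every sonidegib library below it. The log2 changes were 0.33 ± 0.073 (adjusted p = 0.0022) with SAHA and -0.80 ± 0.073 (adjusted p = 3.71e-06) with sonidegib. EIF2S2, for the beta subunit, stood at 127, 118 and 137 TPM in control, 54.7, 49.9 and 57.3 under SAHA, 108, 112 and 114 under sonidegib, and 68.6, 70.03 and 81.9 under both drugs. It fell under SAHA (-1.23 ± 0.080, adjusted p = 1.64e-07) and under both drugs (-0.79 ± 0.080, adjusted p = 4.89e-06), and its change of -0.19 with sonidegib was not called. EIF2S3, for the gamma subunit that binds the tRNA, fell by 0.47 with SAHA and rose by 0.22 with sonidegib on the log2 scale. That rise is lost under 8 of the alternative settings. The copy EIF2S3B had mean levels of 1.07 to 2.37 TPM over the groups, and reads can be split between the copies. EIF2A and EIF2D, which encode other carriers of initiator tRNA, fell with SAHA (log2 -0.82 and -0.52) and rose with sonidegib (0.50 and 0.23). Of this group of 6 genes, 1 rose and 5 fell with SAHA, and 3 rose and 2 fell with sonidegib. Called genes made up 100% and 83.3% of the group, against 58.7% and 55.3% of all tested genes.

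All 5 subunits of eIF2B, the exchange factor that recharges eIF2 with GTP, fell with sonidegib, against 29.2% of all tested genes. EIF2B1 showed the widest change of the 5, with 36.3, 37.5 and 38.8 TPM in control, 37.1, 39.3 and 38.7 under SAHA, 16.9, 18.4 and 21.3 under sonidegib, and 17.6, 17.1 and 19.5 under both drugs. The libraries with sonidegib lay below all those without it, and the log2 change was -0.96 ± 0.082 (adjusted p = 2.00e-06) against control and -1.05 ± 0.082 (adjusted p = 1.39e-06) for the combination against SAHA. The other subunits fell with sonidegib by log2 values from -0.24 (EIF2B2) to -0.49 (EIF2B3), and the fall of EIF2B2 is lost under quantile normalization. With SAHA EIF2B2 and EIF2B4 rose (0.58 and 0.36), EIF2B5 fell (-0.37), and EIF2B1 and EIF2B3 were not called. EIF2B2 stood at 49.1 ± 1.43 TPM in control, 73.99 ± 1.86 under SAHA, 41.4 ± 0.964 under sonidegib and 65.5 ± 2.71 under both drugs, so that its level with the combination lay above control. EIF2B3 was lower with sonidegib alone (34.9 ± 2.74 TPM) than with the combination (55.2 ± 5.73 TPM), a log2 difference of 0.64 ± 0.087 (adjusted p = 1.66e-04).

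Of 12 genes for eIF2 kinases, phosphatase subunits and readouts, 4 rose and 2 fell with SAHA, 6 rose and 1 fell with sonidegib, and 6 rose and 1 fell with the combination. Called genes made up 50% of the list with SAHA, 58.3% with sonidegib and 58.3% for the combination, beside 58.7%, 55.3% and 63.7% of all tested genes. EIF2AK3, which encodes the endoplasmic reticulum stress kinase PERK, stood at 5.77 ± 1.22 TPM in control, 10.2 ± 1.24 under SAHA, 12.9 ± 1.295 under sonidegib and 19.4 ± 2.31 under both drugs. Its libraries did not overlap control in any of the 3 groups, and the log2 change with the combination was 1.6 ± 0.14 (adjusted p = 1.47e-06). DDIT3, for the stress transcription factor CHOP, rose from 6.48 ± 2.15 TPM in control to 53.8 ± 4.58 with sonidegib (log2 change 2.91 ± 0.17, adjusted p = 1.13e-07) and 82.1 ± 11.5 with the combination. PPP1R15B, a subunit of the phosphatase that acts on eIF2 alpha, stood at 9.38 ± 1.43 TPM in control, 15.98 ± 1.97 under SAHA, 13.6 ± 1.13 under sonidegib and 27.6 ± 3.96 under both drugs, and its log2 change for the combination against sonidegib was 0.96 ± 0.13 (adjusted p = 1.57e-04). ATF4, whose protein switches on stress genes, stood at 765 ± 17.6 TPM in control, 593 ± 12.4 under SAHA, 944 ± 23.9 under sonidegib and 837 ± 29.8 under both drugs. It fell with SAHA (log2 -0.37) and rose with sonidegib (0.30) and with the combination (0.13). Phosphorylation of eIF2 was not measured.

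The eIF3 complex bridges the small ribosomal subunit and eIF4F. Of its 14 genes (EIF3CL included) none rose and 11 fell with SAHA, while 4 rose and 8 fell with sonidegib. Called genes made up 78.6% and 85.7% of the 14, against 58.7% and 55.3% of all tested genes, of which 26.9% and 29.2% fell. The eIF3 core shared with budding yeast (subunits a, b, c, g and i) fell with SAHA in 5 of 5 genes, with log2 changes from -0.56 to -0.23. The same core fell with sonidegib in 5 of 5 genes, from -1.04 to -0.29, and with the combination in 5 of 5, from -1.02 to -0.32. Among the 7 other subunits (d, e, f, h, k, l and m) none rose and 4 fell with SAHA, and 4 rose and 2 fell with sonidegib. The fall of EIF3G with SAHA and the falls of EIF3C and EIF3I with the combination are lost under quantile normalization. EIF3J, a loosely held subunit outside both groups, fell with SAHA (-0.39) and with sonidegib (-0.95), and its SAHA call is lost without control replicate 2, control replicate 3 or SAHA replicate 2.

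EIF3B, the scaffold subunit, stood at 346, 369.9 and 336 TPM in control, 264, 291 and 272 under SAHA, 169, 162 and 177 under sonidegib, and 163, 177 and 175 under both drugs. All treated libraries lay below control, with the 6 sonidegib-exposed libraries lowest, and the log2 change with sonidegib was -1.04 ± 0.057 (adjusted p = 7.97e-08). In contrast EIF3E stood at 344, 319 and 337 TPM in control, 225, 193 and 234 under SAHA, 384, 407 and 394 under sonidegib, and 329.8, 349 and 384 under both drugs. It fell with SAHA (-0.62 ± 0.074, adjusted p = 2.38e-05) and rose with sonidegib (0.24 ± 0.074, adjusted p = 0.016), where the call is lost without control replicate 2 or sonidegib replicate 2. The combination libraries of EIF3E overlapped control. EIF3F, EIF3H and EIF3L also rose with sonidegib, by log2 values of 0.33, 0.25 and 0.44, and the call of EIF3H is likewise lost without control replicate 2 or sonidegib replicate 2. EIF3D, whose protein can bind the cap itself, stood at 237 ± 9.08 TPM in control, 155 ± 4.01 under SAHA, 237 ± 6.02 under sonidegib and 177 ± 5.38 under both drugs. It fell with SAHA alone (-0.60 ± 0.045, adjusted p = 4.77e-07) and with SAHA after sonidegib (-0.42 ± 0.045, adjusted p = 3.34e-05), and its change with sonidegib was -0.0003. EIF3K and EIF3M fell with sonidegib (-0.33 and -0.20), the latter in a call lost under 14 of the alternatives. EIF3CL, which is nearly identical to EIF3C, had 69.9 ± 6.66 TPM in control, 55.8 ± 2.46 under SAHA, 63.6 ± 7.24 under sonidegib and 60.6 ± 1.74 under both drugs, and reads of the copies may be divided between them.

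The eIF4 group moved apart under sonidegib. EIF4A1, the main cytoplasmic helicase gene (ENSG00000161960, chr17:7572706-7579005, plus strand), stood at 859, 896 and 853 TPM in control, 347, 363 and 387 under SAHA, 571, 561 and 574 under sonidegib, and 441, 429 and 445 under both drugs. No group overlapped another. Its log2 change was -1.25 ± 0.044 (adjusted p = 2.23e-09) with SAHA and -0.61 ± 0.044 (adjusted p = 6.40e-07) with sonidegib. The paralogue EIF4A2 (ENSG00000156976, chr3:186783205-186789900, plus strand) stood at 190.0, 191 and 218 TPM in control, 126, 110.4 and 137 under SAHA, 282, 257 and 284 under sonidegib, and 256, 291 and 295 under both drugs. It fell with SAHA (-0.68 ± 0.088, adjusted p = 4.12e-05) and rose with sonidegib (0.46 ± 0.088, adjusted p = 9.91e-04), and the libraries did not overlap control in either group. EIF4A1 exceeded EIF4A2 in every library.

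EIF4B, whose protein stimulates the helicase, stood at 175, 177 and 193 TPM in control, 105, 105 and 115 under SAHA, 383, 375 and 364 under sonidegib, and 300.1, 301 and 299.8 under both drugs. It was lowest with SAHA and highest with sonidegib, with no overlap between any of the groups. The log2 change was -0.74 ± 0.052 (adjusted p = 3.00e-07) with SAHA and 1.04 ± 0.052 (adjusted p = 4.16e-08) with sonidegib, the largest rise of any member there. EIF4G1, the scaffold of eIF4F, stood at 228, 232 and 226 TPM in control, 159, 167 and 157 under SAHA, 109, 112 and 110.0 under sonidegib, and 90.9, 88.7 and 89.9 under both drugs. Each group lay apart from the others, in the falling order control, SAHA, sonidegib, combination. Its log2 change was -0.50 ± 0.039 (adjusted p = 7.45e-07) under SAHA, -1.04 ± 0.039 (adjusted p = 7.00e-09) under sonidegib and -1.34 ± 0.039 (adjusted p = 3.71e-10) under both drugs. EIF4G2 (DAP5), a scaffold that lacks the eIF4E site, followed the same order with 517 ± 19.04 TPM in control, 296 ± 29.5 under SAHA, 212 ± 6.85 under sonidegib and 166 ± 23.7 under both drugs. The log2 change of EIF4G2 was -1.28 ± 0.094 (adjusted p = 6.58e-07) with sonidegib and -1.64 ± 0.094 (adjusted p = 4.62e-08) with the combination.

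EIF4E, the cap-binding subunit, stood at 73.2, 72.9 and 83.8 TPM in control, 62.8, 54.7 and 66.2 under SAHA, 48.8, 52.2 and 55.8 under sonidegib, and 55.8, 49.1 and 62.4 under both drugs. It fell with sonidegib (-0.54 ± 0.10, adjusted p = 7.29e-04) and with SAHA (-0.32 ± 0.10, adjusted p = 0.016), the latter call being lost without control replicate 3 or SAHA replicate 2. EIF4E3, a cap-binding relative of low level, stood at 2.01, 2.7 and 3.2 TPM in control, 6.81, 4.91 and 7.25 under SAHA, 4.56, 4.99 and 3.73 under sonidegib, and 4.71, 4.2 and 5.01 under both drugs. Every treated library of EIF4E3 lay above control, and the log2 change was 1.01 ± 0.16 (adjusted p = 2.23e-04) with SAHA and 0.58 ± 0.16 (adjusted p = 0.0094) with sonidegib. EIF4E2, which encodes the repressive cap-binding homologue, was not called with SAHA (-0.14) or with sonidegib (-0.26) and fell with the combination (-0.41), a call lost under quantile normalization. EIF4H, a helicase cofactor, had a change of -0.02 with SAHA and fell by 0.30 with sonidegib on the log2 scale, which quantile normalization also ends.

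The E-box letters CACGTG, the same on both strands, are the core of the site that MYC and related factors can bind. They were found in the 300-base windows (250 bases before the start and 50 from it on) of 13 of 51 members, or 25.5%, against 8.77% of the genes in the table. Here too the table holds genes below the level limit, so the shares are not over like sets of genes. EIF4E and EIF4G1 each hold CACGTG at 2 places, with these letters in capitals and the stretches on GRCh38.p14 read 5′ to 3′ on the gene's strand. They are shown because these genes encode subunits of eIF4F.
EIF4E, chr4:98929188-98929370, minus strand: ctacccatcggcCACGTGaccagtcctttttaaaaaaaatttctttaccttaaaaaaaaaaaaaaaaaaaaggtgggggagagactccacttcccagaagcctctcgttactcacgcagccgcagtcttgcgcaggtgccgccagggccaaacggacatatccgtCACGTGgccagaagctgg
EIF4G1, chr3:184314450-184314556, plus strand: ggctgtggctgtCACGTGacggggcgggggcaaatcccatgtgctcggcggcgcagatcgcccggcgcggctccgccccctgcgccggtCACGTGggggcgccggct
The letters begin at -225 and -72 for EIF4E and at -144 and -67 for EIF4G1, counted from the annotated start. Of the 13 members with the letters 4 rose and 7 fell with sonidegib (median log2 -0.30), and of the 38 without them 9 rose and 23 fell (median -0.28). With SAHA 2 of the 13 rose and 6 fell (median -0.10), against 6 and 23 of the 38 (-0.36). With the combination 5 of the 13 rose and 5 fell (median 0.03), against 8 and 22 of the 38 (-0.30). This split was also looked at after values had been seen, has no test and was not counted over all tested genes. Binding was not measured.

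The 4E-BP genes moved against each other. EIF4EBP1, the most abundant of the 3, stood at 296, 289 and 274 TPM in control, 207, 232 and 229 under SAHA, 456, 482 and 442 under sonidegib, and 263, 267 and 259 under both drugs. Sonidegib libraries lay above all others and SAHA libraries below control. Its log2 change was 0.68 ± 0.054 (adjusted p = 1.15e-06) with sonidegib, and -0.80 ± 0.054 (adjusted p = 1.15e-06) for the combination against sonidegib. EIF4EBP3 stood at 29.99 ± 3.19 TPM in control, 19.98 ± 2.86 under SAHA, 56.4 ± 4.24 under sonidegib and 30.4 ± 3.44 under both drugs, with log2 changes of -0.57 with SAHA and 0.89 with sonidegib. EIF4EBP2 went the other way, with 24.7 ± 2.48 TPM in control, 33.5 ± 2.58 under SAHA, 16.3 ± 0.561 under sonidegib and 26.5 ± 1.595 under both drugs, rising by 0.43 with SAHA and falling by 0.57 with sonidegib on the log2 scale. None of the 3 was called for the combination against control, where the changes were -0.12 for EIF4EBP1, 0.10 for EIF4EBP2 and 0.02 for EIF4EBP3. EIF4ENIF1, which encodes the eIF4E transporter 4E-T, was not called with either drug alone (0.23 and 0.09) and fell with the combination, from 13.5 ± 2.04 to 8.69 ± 1.35 TPM (log2 -0.58 ± 0.12, adjusted p = 0.0013).

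Of 17 genes for mTORC1 and MNK control of eIF4F, 3 rose and 6 fell with SAHA, 4 rose and 7 fell with sonidegib, and 3 rose and 5 fell with the combination. In the same order 52.9%, 64.7% and 47.1% of the list were called, against 58.7%, 55.3% and 63.7% of all tested genes. AKT1S1, which encodes the mTORC1 component PRAS40, stood at 78.1 ± 5.898 TPM in control, 22.9 ± 1.96 under SAHA, 33.9 ± 2.58 under sonidegib and 17.97 ± 0.916 under both drugs. It fell in all 3 groups, with a log2 change of -2.06 ± 0.083 (adjusted p = 3.46e-09) under both drugs. DDIT4 (REDD1), a stress-induced brake on mTORC1, stood at 122 ± 27.7 TPM in control, 87.5 ± 7.23 under SAHA, 394 ± 44.04 under sonidegib and 216 ± 21.1 under both drugs, with a log2 change of 1.7 ± 0.14 (adjusted p = 1.81e-06) for sonidegib. MKNK1, an eIF4E kinase gene, had a log2 change of 0.92 ± 0.12 (adjusted p = 4.62e-05) with SAHA, and MKNK2 one of 0.72 ± 0.076 (adjusted p = 1.15e-05) with sonidegib. Phosphorylation of the 4E-BPs and of eIF4E was not measured.

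All 3 joining factors fell with sonidegib, against 29.2% of all tested genes. EIF6, whose protein keeps the large subunit from joining too early, stood at 364, 378 and 324 TPM in control, 243, 280.3 and 238 under SAHA, 163, 166 and 163 under sonidegib, and 132, 144 and 137 under both drugs. The groups followed in the falling order control, SAHA, sonidegib, combination, with no overlap between control and any treated group. Its log2 change was -0.48 ± 0.071 (adjusted p = 1.18e-04) with SAHA and -1.11 ± 0.071 (adjusted p = 2.45e-07) with sonidegib. EIF5, the GTPase activator of eIF2, stood at 243 ± 11.1 TPM in control, 159.8 ± 1.37 under SAHA, 151 ± 10.8 under sonidegib and 99.9 ± 12.9 under both drugs, with log2 changes of -0.60 ± 0.083 (adjusted p = 7.12e-05) under SAHA, -0.68 ± 0.083 (adjusted p = 3.37e-05) under sonidegib and -1.28 ± 0.083 (adjusted p = 1.23e-07) under both drugs. EIF5B was not called with SAHA (-0.07) and fell with sonidegib, from 52.3 ± 5.23 to 29.9 ± 2.65 TPM (log2 -0.78 ± 0.14, adjusted p = 6.77e-04).

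The elongation factor genes EEF1A1, EEF1G and EEF2 were the most abundant members. Of the 7 elongation factors 4 rose with sonidegib and 2 fell, so 85.7% were called against 55.3% of all tested genes. EEF1A1, which delivers tRNA to the ribosome (ENSG00000156508, chr6:73515750-73523797, minus strand), stood at 10832, 10075 and 9966 TPM in control, 7833, 7884 and 8469 under SAHA, 14304, 14703 and 14246 under sonidegib, and 12736, 12858 and 12801 under both drugs. SAHA libraries lay below control and the 6 libraries with sonidegib above it. Its log2 change was -0.35 ± 0.043 (adjusted p = 2.62e-05) with SAHA and 0.49 ± 0.043 (adjusted p = 2.63e-06) with sonidegib, and the second became -0.07 under quantile normalization. Quantile normalization sets each value by rank, so a gene as abundant as EEF1A1 can gain share without gaining rank. The pseudogene row EEF1A1P5 averaged 529 TPM and can take reads of EEF1A1. EEF1A1P5 stood at 414, 405 and 400.0 TPM in control and 689, 713 and 715 TPM with sonidegib. EEF2, the translocase, stood at 1666, 1577 and 1474 TPM in control, 1496, 1577 and 1462 under SAHA, 2345, 2407 and 2216 under sonidegib, and 2246, 2195 and 2163 under both drugs. SAHA libraries overlapped control (-0.06 ± 0.052, adjusted p = 0.38), and sonidegib libraries lay above (0.56 ± 0.052, adjusted p = 3.66e-06). EEF1G and EEF1D, for eEF1 complex subunits, rose with sonidegib (0.52 and 0.31) and with the combination (0.38 and 0.32), and neither was called with SAHA. EEF1B2, the exchange factor of eEF1A, fell with SAHA (-0.65 ± 0.047, adjusted p = 4.06e-07) and by 0.16 with sonidegib on the log2 scale, the second in a call lost under 3 scalings.

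EIF5A, whose protein helps the ribosome past difficult peptide bonds and carries the unique residue hypusine, fell in every treated group. EIF5A (ENSG00000132507, chr17:7306999-7312463, plus strand) stood at 932, 974 and 887 TPM in control, 394, 423 and 408 under SAHA, 377, 369 and 374 under sonidegib, and 299.9, 302 and 328 under both drugs. All treated libraries lay below control, and the log2 change was -1.19 ± 0.049 (adjusted p = 6.38e-09) under SAHA, -1.31 ± 0.049 (adjusted p = 7.00e-09) under sonidegib and -1.58 ± 0.049 (adjusted p = 5.41e-10) under both drugs. The paralogue EIF5A2 stood at 5.4, 3.44 and 6.73 TPM in control, 10.4, 11.3 and 10.8 under SAHA, 5.72, 5.85 and 4.07 under sonidegib, and 9.59, 8.65 and 10.6 under both drugs. It rose with SAHA alone (0.97 ± 0.18, adjusted p = 7.53e-04) and with SAHA after sonidegib (0.78 ± 0.18, adjusted p = 0.0058), and its sonidegib libraries overlapped control. EIF5A exceeded EIF5A2 in every library.

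**Figure D3:**
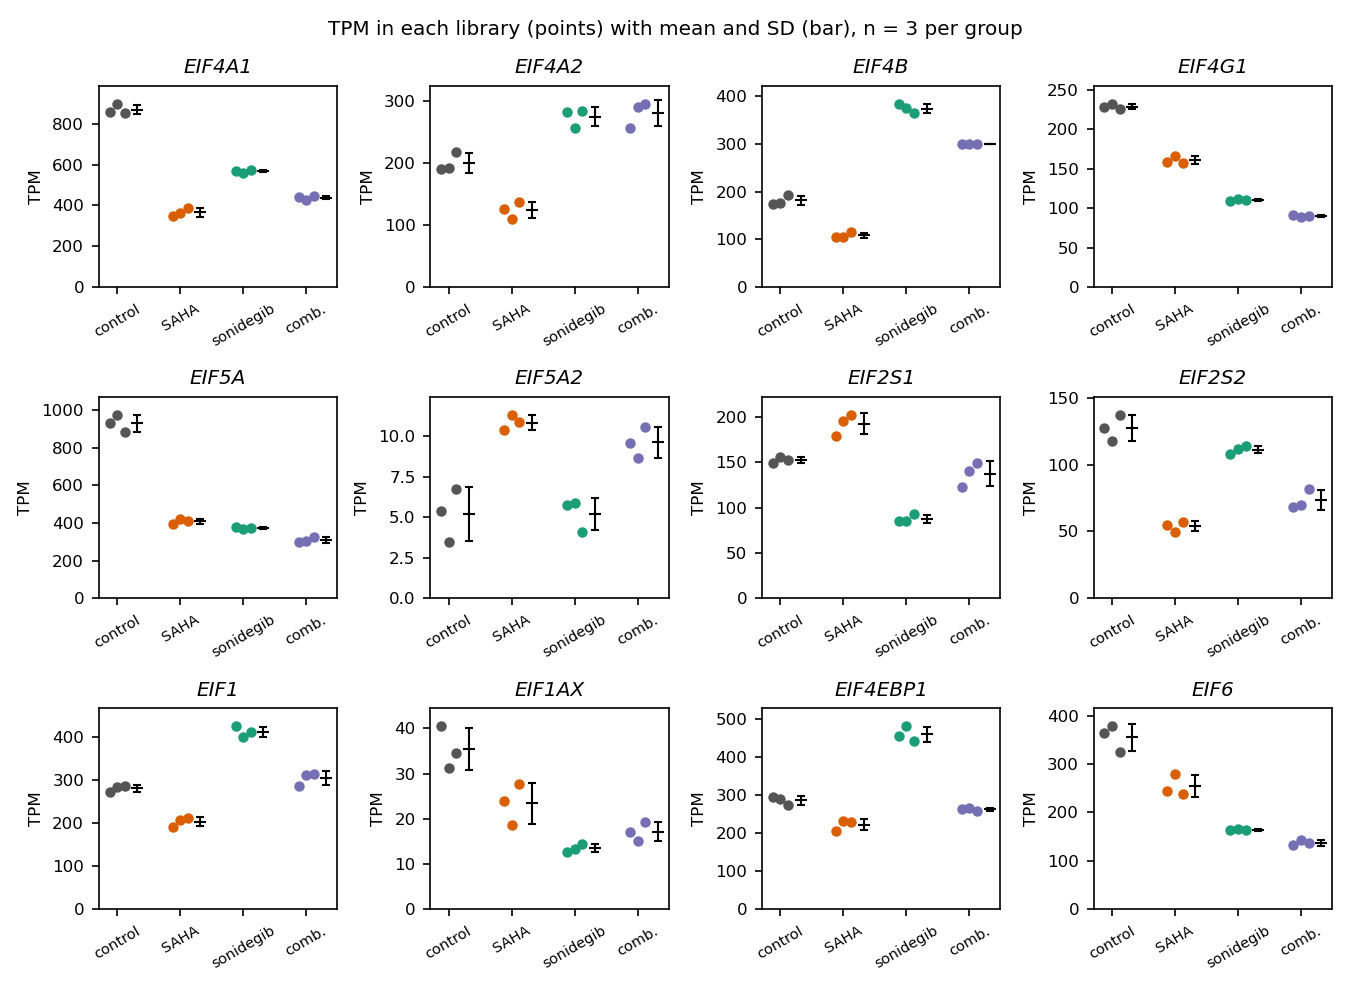
TPM of 12 members in every library (points, by group) with the mean and SD of 3 libraries (bar), each on its own axis from 0. EIF4A1 and EIF5A lie lower in every treated library than in control, EIF4A2 and EIF4B lie below control with SAHA and above it with sonidegib, and EIF2S1 and EIF5A2 are higher with SAHA.

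Of 9 genes that modify eIF5A or eEF2, 2 rose and 5 fell with SAHA, 2 rose and 4 fell with sonidegib, and 2 rose and 5 fell with the combination. These are 77.8%, 66.7% and 77.8% of the list, against 58.7%, 55.3% and 63.7% of all tested genes. DHPS and DOHH make hypusine on eIF5A in turn. DHPS stood at 59.3 ± 2.17 TPM in control, 84.6 ± 1.54 under SAHA, 104 ± 3.81 under sonidegib and 96.8 ± 5.91 under both drugs, with a log2 change of 0.80 ± 0.055 (adjusted p = 4.09e-07) for sonidegib. DOHH stood at 16.6 ± 0.592 TPM in control, 12.5 ± 1.69 under SAHA, 7.77 ± 0.975 under sonidegib and 7.803 ± 0.371 under both drugs, with a log2 change of -1.01 ± 0.10 (adjusted p = 9.46e-06) for sonidegib. DPH2, for the first step of diphthamide synthesis on eEF2, stood at 79.7 ± 6.42 TPM in control, 49.0 ± 1.43 under SAHA, 31.3 ± 5.21 under sonidegib and 33.95 ± 1.06 under both drugs, a log2 change of -1.33 ± 0.098 (adjusted p = 7.09e-07) for sonidegib.

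Of 7 enzymes that methylate or phosphorylate elongation factors, 3 fell with SAHA and none rose. With sonidegib 2 of them rose and 4 fell. Called genes made up 42.9% of the 7 with SAHA and 85.7% with sonidegib, against 58.7% and 55.3% of all tested genes. EEF1AKMT1, a lysine methyltransferase of eEF1A, stood at 10.8 ± 1.16 TPM in control, 3.95 ± 0.189 under SAHA, 4.93 ± 0.925 under sonidegib and 2.68 ± 0.736 under both drugs, with log2 changes of -1.25 ± 0.16 (adjusted p = 3.94e-05) with SAHA and -1.0 ± 0.16 (adjusted p = 2.69e-04) with sonidegib. EEF2KMT, which methylates eEF2, fell with SAHA (-0.37) and with sonidegib (-1.13 ± 0.087, adjusted p = 9.76e-07), as did EEF1AKMT4 (-0.51 and -0.90). EEF1AKNMT (METTL13) was not called with SAHA and fell with sonidegib (-0.49). EEF1AKMT3 rose with sonidegib (0.62), as did EEF2K (0.41), which encodes the kinase that inactivates eEF2 and whose call is lost under 8 alternatives. EEF1AKMT2 was called in no comparison. Levels of EEF1AKMT2, EEF1AKMT3 and EEF2K were under 6 TPM in every library.

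The remaining 5 members match by name and have other roles. EIF4A3, a helicase of the exon junction complex rather than of eIF4F, stood at 162, 186 and 180.1 TPM in control, 325, 343 and 329 under SAHA, 146, 125 and 150.4 under sonidegib, and 199, 232 and 249 under both drugs. It rose with SAHA (0.91 ± 0.091, adjusted p = 5.06e-06) and with SAHA after sonidegib (0.68 ± 0.091, adjusted p = 1.49e-04), and fell with sonidegib (-0.32), in a call that quantile normalization ends. EIF1AD rose with SAHA (0.44) and fell with sonidegib (-0.27). EEF1E1, a scaffold of the tRNA synthetase complex, fell with SAHA (-0.85 ± 0.13, adjusted p = 1.45e-04) and with sonidegib (-0.50), the latter again not under quantile normalization. EIF3J-DT fell with SAHA (-0.52) and was not called with sonidegib (0.30). The readthrough EEF1E1-BLOC1S5 was called in no comparison and ranged from 0 to 5.08 TPM.

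Outside the set, other cytoplasmic factors of the same path had more falls than rises. Of 20 initiation, recycling and termination factors, 3 rose and 12 fell with SAHA (median log2 -0.37), 2 rose and 11 fell with sonidegib (-0.33), and 3 rose and 11 fell with the combination (-0.24). Called genes were 75%, 65% and 70% of these, against 58.7%, 55.3% and 63.7% of all tested genes. PABPC4, a cytoplasmic poly(A)-binding protein gene, stood at 476 ± 26.8 TPM in control, 206 ± 9.86 under SAHA, 305 ± 22.7 under sonidegib and 230.0 ± 13.8 under both drugs, a log2 change of -1.2 ± 0.068 (adjusted p = 5.42e-08) for SAHA. PDCD4, an inhibitor of eIF4A, stood at 88.2 ± 9.703 TPM in control, 40.5 ± 2.21 under SAHA, 146 ± 12.3 under sonidegib and 118 ± 13.9 under both drugs, falling with SAHA (-1.1) and rising with sonidegib (0.72). ABCE1, the ribosome recycling factor, stood at 47.4 ± 2.205 TPM in control, 24.9 ± 2.89 under SAHA, 25.2 ± 1.14 under sonidegib and 20.8 ± 4.15 under both drugs, a log2 change of -0.88 ± 0.12 (adjusted p = 8.77e-05) for sonidegib. LARP1, which binds TOP starts, had a log2 change of -1.09 ± 0.066 (adjusted p = 7.01e-08) with the combination. It stood at 74.5 ± 5.16 TPM in control, 45.2 ± 0.917 under SAHA, 61.4 ± 1.21 under sonidegib and 34.5 ± 2.53 under both drugs. Of 10 tested mitochondrial translation factors, 3 rose and 3 fell with SAHA, 1 rose and 6 fell with sonidegib, and 1 rose and 3 fell with the combination. These are 60%, 70% and 40%, against 58.7%, 55.3% and 63.7% of all tested genes. GFM2, for a mitochondrial recycling factor, rose with each drug (0.88 and 0.36), and MRRF, which works with it, fell with each (-1.04 and -0.67).

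Members with and without the pyrimidine starts printed above are given side by side. With SAHA 11 of the 13 members with such a start fell and none rose (median log2 -0.52), and of the 38 without it 18 fell and 8 rose (-0.10). With sonidegib 8 of the 13 rose and 4 fell (median 0.23), while of the 38 others 5 rose and 26 fell (-0.42). For the combination against SAHA 10 of the 13 rose and 1 fell (median 0.55), against 4 and 21 of the 38 (-0.25). EEF1A1, EEF2, EIF4A2 and EIF4B are among those with the start and rose with sonidegib, whereas EIF4A1, EIF1AX, EIF2B1 and EIF5B, without it, fell. The latter 4 were picked for that fall. The members with the start that fell with sonidegib were EEF1B2, EIF2S3B, EIF3K and EIF3M, and those without it that rose were EIF1 (0.55), EEF1G (0.52), EIF4EBP3 (0.89), EIF4E3 (0.58) and EEF2K (0.41). This split was looked at after values had been seen and has no test. A window was found for 70.1% of all tested genes, and their changes by kind of start are not given. The counts therefore do not tell whether the difference is particular to translation factors. Of all tested genes, whatever their start, 31.8% rose and 26.9% fell with SAHA, and 26.1% and 29.2% with sonidegib. For the combination against SAHA 18.0% rose and 33.0% fell. The share of ribosomal protein RNA was by group mean likewise highest with sonidegib and lowest with SAHA, and its part in these changes was not tested.

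**Figure D4:**
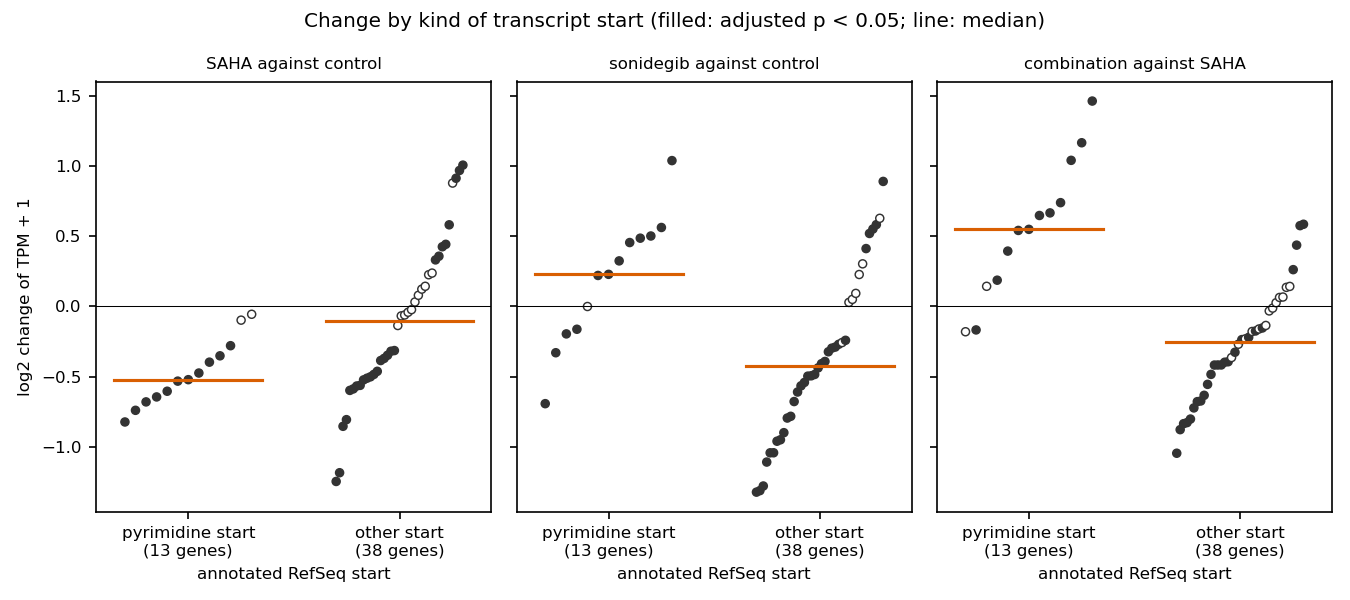
Each point is a member, placed by its log2 change and separated by whether its annotated RefSeq start is a pyrimidine start (13 members) or not (38 members), in the comparisons named over the panels; filled points have an adjusted p under 0.05 and lines are medians. With sonidegib the medians are 0.23 and -0.42, and with SAHA -0.52 and -0.10.

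SAHA was applied with and without sonidegib, and these comparisons share no libraries. After sonidegib, 21 members fell and 7 rose on addition of SAHA, and 35 were not called; called members made up 44.4%, against 38.5% of all tested genes. By direction 33.3% of members fell against 21.0% of all tested genes, and 11.1% rose against 17.5%. The libraries of 37 members did not overlap, against 49.6% of all tested genes. Under median-of-ratios scaling 18 members fell and 12 rose, while of the 13937 tested genes 2968 fell and 2827 rose. Between them the SAHA comparisons held 18 members that fell in both, 6 that rose in both and none with opposite calls. Another 19 fell with SAHA alone and were not called after sonidegib, and 3 were called lower after sonidegib without a call for SAHA alone. Joint calls were not counted over all tested genes, of which 26.9% fell and 31.8% rose with SAHA alone. These counts therefore do not set the members apart from other genes. The 6 that rose in both were EIF1AD, EIF2B2, EIF2S1, EIF4A3, EIF4EBP2 and EIF5A2. EIF4A1, EIF5A, EIF4B, EIF2S2, EIF5 and both EIF4EBP1 and EIF4EBP3 are among the 18.

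The interaction, which subtracts the SAHA change without sonidegib from that with it, tests whether the SAHA response differed. It was called for 30 members, 26 of them positive and 4 negative, or 47.6% against 31.4% of all tested genes. Positive values were found for 41.3% of members against 11.8% of all tested genes, and negative ones for 6.35% against 19.7%. Under median-of-ratios scaling the calls of all tested genes went from 1642 positive and 2739 negative to 2392 and 2395, and those of the members to 27 and 4. EIF5A fell by 1.19 with SAHA alone and by 0.27 after sonidegib on the log2 scale, an interaction of 0.92 ± 0.070 (adjusted p = 4.79e-06). For EIF4A1 the changes were -1.25 and -0.38, with an interaction of 0.87 ± 0.063 (adjusted p = 3.08e-06). EIF4A2 changed by -0.68 and 0.03, with 0.71 ± 0.12 (adjusted p = 0.0013). EIF4ENIF1 moved the opposite way, with 0.23 and -0.67 and an interaction of -0.90 ± 0.17 (adjusted p = 0.0021). For EIF4E3 they were 1.01 and 0.06, with -0.95 ± 0.23 (adjusted p = 0.0085). EIF5 fell by the same log2 value of 0.60 in both, and its interaction was -0.0007 ± 0.12. Leaving out single libraries, the positive count ranged from 18 to 25.

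**Figure D5:**
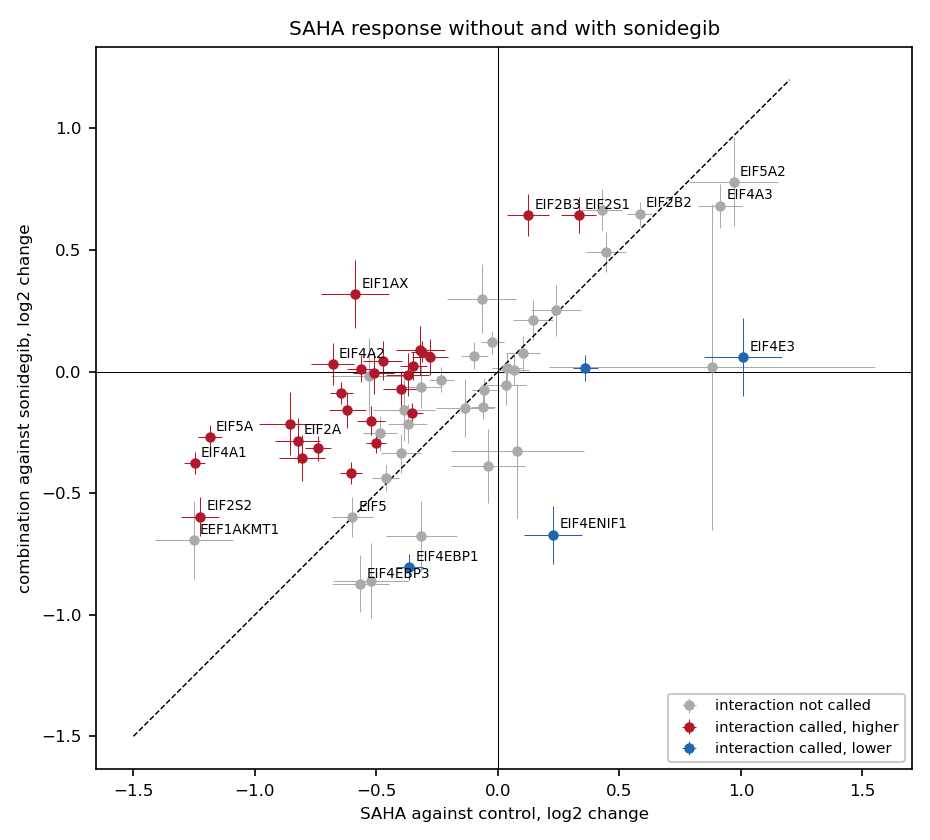
Each point is a member, with its log2 change with SAHA alone on the x axis and with SAHA after sonidegib on the y axis; bars are SE, members with a called interaction are coloured and the diagonal shows equal changes. EIF5A at -1.19 and -0.27 and EIF4A1 at -1.25 and -0.38 lie above the diagonal, and EIF4ENIF1 at 0.23 and -0.67 lies below.

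Sonidegib was likewise compared with and without SAHA on separate libraries. With SAHA present, 20 members were higher and 25 lower in the combination than in SAHA alone, and 71.4% were called against 50.9% of all tested genes. Members rose in 31.7% against 18.0% of all tested genes, and fell in 39.7% against 33.0%, and for 47 members the libraries did not overlap, against 57.0%. The median change of all tested genes was itself -0.12 here, and -0.14 over the members. Under median-of-ratios scaling the median of all tested genes was -0.009, their calls went from 2506 higher and 4594 lower to 3502 and 3735, and 24 members were higher and 16 lower. In the sonidegib comparisons 16 members rose in both, 24 fell in both, and EEF1B2 and EIF4A1 fell with sonidegib alone and rose in the presence of SAHA. Here too joint calls were not counted over all tested genes, of which 26.1% rose and 29.2% fell with sonidegib alone. EIF4B rose by 1.04 without and 1.47 with SAHA on the log2 scale. EIF4G1 fell by 1.04 and 0.84, and EIF6 by 1.11 and 0.88.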

How the data were processed

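RNA was measured by sequencing in 12 libraries, whose groups and numbers come from the sample labels. The values are TPM as deposited in 1 table; Bowtie2 2.4.1 and GRCh38 are named per the submitters' processing notes, while the quantifier, annotation and library selection are not given in the sources used here. TRIzol extraction and a standard Illumina preparation are stated per the labels' protocols. Gene IDs matched GENCODE 29 for 58611 rows, which gave gene type and coordinates (GRCh38). Start windows came from RefSeq (GRCh38.p14), with METTL13 read as EEF1AKNMT.

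From the table, log2(TPM + 1) was fitted with limma 3.58.1 in R 4.3.3 for the 13937 genes that averaged 1 TPM or more, with 4 group means and a variance prior that follows the mean. Two-sided tests were adjusted after Benjamini and Hochberg in each of 6 comparisons, with calls at adjusted p under 0.05. Fold changes on this scale understate those of low genes. The interaction is combination minus sonidegib minus SAHA plus control. The fit was tested on simulated data. All members could be named. Those described in full mostly came from the 5 largest called rises and falls without overlap in a comparison and from paralogue pairs. Some have a mean and SD in place of each library. EIF2S1 and EIF3B were added after their values had been seen, and levels of EIF3D, EIF3CL, EIF5 and EIF5B are also given outside that rule. From each list of other genes up to 2 rises and 2 falls per comparison were named. The members and lists were chosen with earlier results of these data known. Alternatives were the pseudocount, the level filter, 3 scalings, removal of rRNA and mitochondrial genes, the variance prior, the groups in the fit, the replicate block and leaving out each library. Summing pseudogene rows and near-identical copies was added after the data had been seen.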

Additional observations from a re-analysis of the deposited data

Results flagged for a closer look

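The SAHA response differed with and without sonidegib for 30 of the 63 members by the limma test of the interaction. The interaction is the SAHA log2 change after sonidegib minus that without it. These calls made up 47.6% of members, beside 31.4% of all tested genes. A positive value means that the change after sonidegib was less negative or more positive. Among initiation factors of the cap-binding group the values were 0.87 for EIF4A1, 0.71 for EIF4A2, 0.42 for EIF4B, 0.45 for EIF4G2, 0.41 for EIF4E, 0.21 for EIF4G1 and -0.95 for EIF4E3. For eIF2 and its carriers they were 0.63 for EIF2S2, 0.54 for EIF2A, 0.52 for EIF2S3, 0.32 for EIF2D and 0.31 for EIF2S1, and for eIF2B 0.52 for EIF2B3 and -0.34 for EIF2B4. The eIF3 genes gave 0.57 for EIF3C, 0.46 for EIF3E, 0.40 for EIF3I, 0.37 for EIF3B, 0.34 for EIF3M, 0.32 for EIF3F and 0.19 for EIF3D.

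In elongation the values were 0.92 for EIF5A, 0.56 for EEF1B2 and 0.18 for EEF1A1, with 0.51 for EEF1AKMT4 and 0.36 for EEF2KMT among the enzymes. The start-site factor EIF1AX gave 0.91 and EEF1E1 gave 0.64. Negative values among repressors were -0.90 for EIF4ENIF1 and -0.44 for EIF4EBP1. The calls that were lost most often among the alternatives were those of EEF1A1 (16 alternatives), EIF3F (14), EEF2KMT and EIF4E (12 each), EIF2S1 (11), EIF3D (10) and EIF3M (8). The calls of EIF4G2, EIF4G1 and EEF1E1 were lost under 5, 2 and 1.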

How the results depend on the processing

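Of 249 called results of single members, 196 stayed called in the same direction under every alternative that could test them, and 53 lost the call or turned in at least 1. For the combination against sonidegib the 7 higher members became 12 under median-of-ratios scaling, 11 under quantile normalization and 11 without rRNA and mitochondrially encoded genes. Over all tested genes the higher calls went from 2442 to 2827, 3091 and 2737 in the same order. The last setting tested 14180 genes in place of 13937. For the combination against SAHA the 25 lower members became 16 under median-of-ratios, 75th percentile and quantile scaling alike. The lower calls of all tested genes went from 4594 to 3735, 3608 and 3686 in that order. Quantile normalization turned 5 results. For EEF1A1 the change became -0.071 with sonidegib and -0.071 with the combination, each against control. For EIF4H it became 0.09 in the combination against control and 0.067 in the combination against SAHA. For EIF2B2 it became 0.0063 in the combination against SAHA. This scaling sets each value by rank, so a gene as abundant as EEF1A1 (mean 11392 TPM) can gain share without gaining rank. The turned values of EEF1A1 therefore cannot show whether it rose. The cause of the 5 turns was not tested. Leaving out single libraries gave 8 to 9 higher and 35 to 37 lower members with SAHA, 15 to 19 and 32 to 35 with sonidegib, and 13 to 17 and 31 to 34 with the combination. It gave 7 to 9 and 17 to 22 for the combination against sonidegib, 19 to 21 and 18 to 26 for the combination against SAHA, and 18 to 25 and 4 to 5 for the interaction.

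With the replicate number as a block (replicate block), 9 higher and 37 lower members were called with SAHA, 19 and 34 with sonidegib, 16 and 33 with the combination, and 10 and 22 for the combination against sonidegib. The block left 20 and 25 for the combination against SAHA and 26 and 4 for the interaction. Over all tested genes the block raised the interaction calls from 1642 positive and 2739 negative to 1864 and 2934. Same-numbered libraries deviated from their group means with correlations of -0.059 to 0.111, over 0.1 in 1 of 18 pairs. With 3 libraries a group, these weak correlations cannot show whether the numbers mark matched cultures, and the labels do not say. A fit of the 2 compared groups alone gives no interaction, and a minimum mean of 5 TPM removes members of low level. Low members are limited by depth, which is unknown.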

Other observations

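Members below the level limit were in no comparison. EEF1A2, the paralogue of EEF1A1 used in nerve and muscle, was listed at 0.24, 0.16 and 0.12 TPM in control, 0.67, 0.37 and 1.04 under SAHA, 0.12, 0 and 0.22 under sonidegib, and 0.21, 0.39 and 1.23 under both drugs. EIF4E1B, a relative of EIF4E known from oocytes, was listed at 0 in the 3 control libraries, at 0.31, 0.61 and 0.69 TPM under SAHA, at 0, 0.03 and 0 under sonidegib, and at 0.20, 0.15 and 0.23 under both drugs. EIF4G3 stood between 0.07 and 0.86 TPM over all 12 libraries.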
